A study of Mus musculus with 4 samples.

Results

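Hox genes encode homeodomain transcription factors that record position along the body axis. The mouse genome carries them in 4 loci (HoxA, HoxB, HoxC and HoxD), and members with the same number, from 1 to 13, form a paralog group. All rows of the count tables whose symbol is Hox, a letter from a to d and a number were taken: 39 of 32286 genes. In the brain, the order of paralog groups along the chromosome follows the order of their front borders along the embryonic hindbrain and spinal cord. The low-numbered groups reach far forward in the hindbrain, the high-numbered groups are used in the trunk and tail, and forebrain, midbrain and the most anterior hindbrain, from which the cerebellum grows, lack Hox expression. Hox transcripts in a brain preparation are therefore the positional signature of pons, medulla or spinal cord. A single count does not place a nucleus, since 8 of 1959 cortical excitatory neuron-like nuclei also had a Hox count. A nucleus without a transcript is not placed by its absence, because Hox RNA is scarce after birth.

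The study asked what the loss of Ago2, the Argonaute protein that carries microRNAs and can cleave their targets, does in neurons that use Slc17a6 (Vglut2, a vesicular glutamate transporter). The libraries labelled WT came from C57BL/6 mice with Slc17a6-Cre and Ago2 wt/wt, and those labelled KO from mice of the same strain with Slc17a6-Cre and Ago2 flox/flox, so that both groups carried the Cre driver. There were 2 libraries per group, from untreated mice at postnatal day 14. Nuclei were taken from snap-frozen hemispheres and counted with 10x 3′ v3 chemistry, in which each captured transcript is a unique molecular identifier (UMI). Only cells that have had Slc17a6-Cre activity can lose Ago2, and the number of animals behind each library is not stated, so the spread between libraries may be technical in part. Ago2 had 73.9 and 82.1 CPM in WT and 88.1 and 91.7 in KO (CPM, counts per 1000000 UMIs of the library or class), a level that does not check the genotype since 3′ tags need not come from the deleted exons. The design text speaks of cortical cells, but cerebellar classes held 25.8% and 32.7% of nuclei in WT and 28.9% and 26.8% in KO.

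After filtering, 15450 nuclei with 56724294 UMIs were kept, 3235 and 5826 in WT and 3221 and 3168 in KO. Median depth was 2404 and 3092.5 UMIs per nucleus in WT and 2314 and 2377 in KO. WT replicate 1 stood apart in that 17.8% of its barcodes exceeded the limit on mitochondrial UMIs, against 5.64% to 8.78% in the other libraries. Pairs of libraries shared between 3 and 10 barcodes.

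Members of one paralog group resemble each other in sequence, which bears on how short reads are assigned. Over whole transcripts (GENCODE M21, GRCm38), the longest identical run between any pair of the 16 members with a UMI was 47 bases, between Hoxb3 and Hoxd3, and the next were 37 bases (Hoxb6 and Hoxb7) and 33 bases (Hoxb3 and Hoxa3).

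The Hox loci also encode microRNAs, which Ago2 loads and which were not measured here. They are shown because Hox messengers are among their known targets. The mature sequences are from RefSeq (GRCm38.p6), 5′ to 3′, with the seed, bases 2 to 8, in capitals; miR-10a and miR-10b share one seed, and miR-196a and miR-196b the other.
miR-10a-5p: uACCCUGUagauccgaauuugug
miR-10b-5p: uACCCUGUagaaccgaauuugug
miR-196a-5p: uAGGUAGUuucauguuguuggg
miR-196b-5p: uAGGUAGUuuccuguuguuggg
The 3′ untranslated region of Hoxb8 holds the site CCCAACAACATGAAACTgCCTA at chr11:96284888-96284909 (GRCm38, plus strand), 418 bases after the stop codon. The capitals mark the 21 of 22 bases that pair with miR-196a-5p, and cleavage of Hoxb8 RNA at such a site by Ago2 is a known case in embryos. The letters ACTACCT, the match to the miR-196 seed, occurred on the transcript strand in 8 of 39 Hox 3′ untranslated regions (20.5%, against 6.05% of 21045 genes), and ACAGGGT, the match to the miR-10 seed, in 4 of 39 (10.3%, against 12.3%), among them Hoxa3 and Hoxb3. The median length of the searched region was 966 bases for the Hox genes and 934 for all genes. A match is a string of letters and not a measured site.

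Hox transcripts were rare and came mostly from the front end of the code. Over the kept nuclei, 425 Hox UMIs were counted in 238 nuclei, and 16 of the 39 members had at least 1 UMI. Paralog groups 3 and 4 held 75.1% of these UMIs (group 3 alone 60.2%), groups 1 and 2 held 8.47%, groups 5 to 8 held 16.2%, and groups 9 to 13 held a single UMI, 0.235%. In each library groups 3 and 4 led, with 75.9% and 70.8% in WT and 83.7% and 72.9% in KO. The 23 members at 0 UMIs included 15 of the 16 members of groups 9 to 13. By locus, HoxB (chr11:96194316-96368256) gave 255 UMIs from 8 of its 10 genes, HoxA (chr6:52155590-52260880) 79 from 3 of 11, HoxD (chr2:74668310-74765142) 53 from 3 of 9, and HoxC (chr15:102921103-103036852) 38 from 2 of 9. Zero counts need care in the loci where gene models overlap. In the GENCODE M21 annotation, 8 of the 23 members at 0 (Hoxa4, Hoxa5, Hoxa6, Hoxc6, Hoxc8, Hoxc9, Hoxc10 and Hoxd4) have most of their exonic bases inside Hoxa3, Hoxc5 or Hoxd3 on the same strand, against 0 of the 16 detected members. Counts of Hoxa3, Hoxc5 and Hoxd3 and the zeros of these 8 genes are uncertain for that reason.

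The members are given from front to back, with CPM over all kept nuclei of a library. Of paralog group 1, whose Hoxb1 sets the identity of the segment that forms the facial motor nucleus, Hoxb1 had 2 UMIs and Hoxd1 had 1. Hoxb1 was at 0 and 0.0775 in WT and 0 in both KO libraries. At such totals no level can be compared.

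Paralog group 2 patterns the anterior hindbrain segments, and Hoxa2 is the only Hox gene that reaches the most anterior of the Hox-expressing segments. Hoxb2 (23 UMIs) was at 0.288 and 0.465 in WT and 0.393 and 0.387 in KO. Hoxa2 (7 UMIs) was at 0.0959 and 0.194 in WT and 0.0984 and 0 in KO. The groups overlapped for both genes.

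Paralog group 3 acts in the middle segments of the hindbrain and in precursors of motor and precerebellar neurons. Hoxb3 (ENSMUSG00000048763), at 136 UMIs in 105 nuclei the most abundant Hox gene, was at 1.82 and 1.98 in WT and 3.93 and 2.52 in KO. Hoxa3 (ENSMUSG00000079560), 69 UMIs, was at 0.959 and 0.891 in WT and 2.16 and 1.36 in KO. Hoxd3 (ENSMUSG00000079277), 51 UMIs, was at 0.384 and 0.62 in WT and 1.28 and 1.74 in KO. For each of these 3 genes both KO libraries lay above both WT libraries. Per kilobase of exon, the order within this paralog group was Hoxb3 with 32 UMIs, Hoxd3 with 12.2 and Hoxa3 with 11.5. With 3′ tags a UMI stands for a transcript whatever its length, so these values do not rank the levels.

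Paralog groups 4 to 6 have their front borders in the caudal medulla and upper cord. Hoxc4 (36 UMIs) was at 0.48 and 0.62 in WT and 0.59 and 0.872 in KO. Hoxb4 (27 UMIs) was at 0.288 and 0.581 in WT and 0.59 and 0.291 in KO. Hoxb5 (38 UMIs) was at 0.384 and 0.736 in WT and 0.59 and 0.872 in KO. These 3 genes overlapped between groups. Hoxb6 (20 UMIs) was at 0.192 and 0.233 in WT and 0.492 and 0.678 in KO, with no overlap.

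Further back, Hoxb8, which carries the miR-196a site printed above and is known in the central nervous system from spinal sensory circuits, had 8 UMIs, at 0.192 and 0.155 in WT and 0.0984 and 0.0969 in KO. The KO libraries were the lower ones, by counts of 1 and 1 against 2 and 4. Hoxc5 had 2 UMIs, and Hoxb7 and Hoxd13, the latter known from limb and tail, had 1 UMI each.

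**Figure D1:**
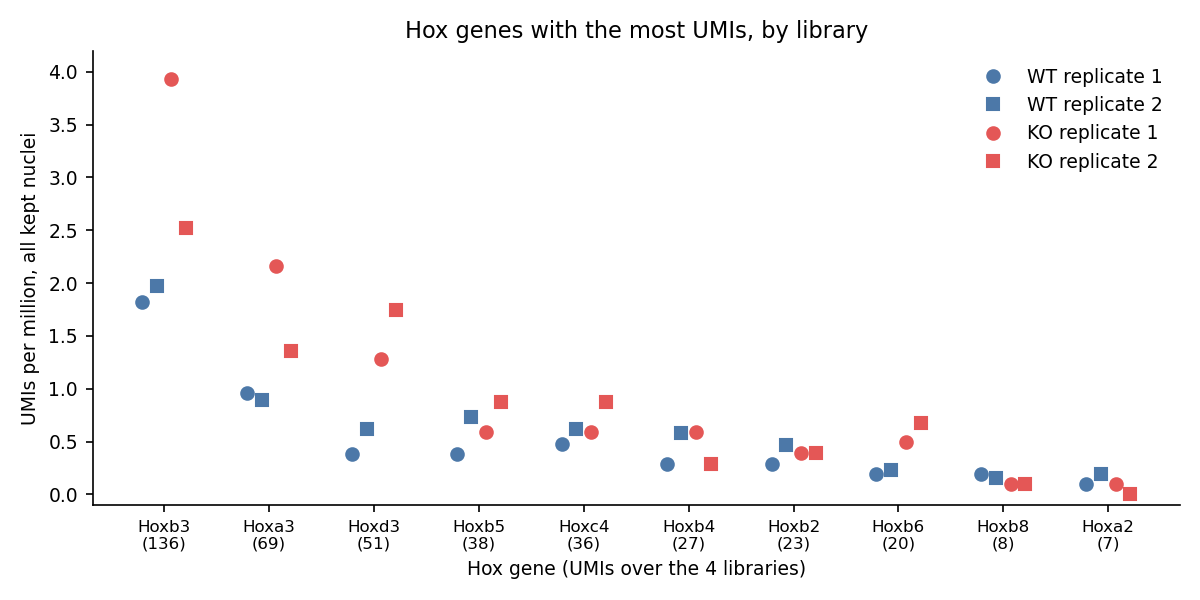
CPM over all kept nuclei (y axis) for the 10 Hox genes with the most UMIs (x axis, totals in brackets); each point is 1 library, blue for WT and red for KO, circles for replicate 1 and squares for replicate 2. Hoxb3, Hoxa3, Hoxd3 and Hoxb6 have both KO points above both WT points; Hoxb8 has them below, from 8 UMIs in all.

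Of the 8 members with at least 10 UMIs, 4 were higher in both KO libraries than in both WT libraries and 4 overlapped. Among the 6714 genes with 10 to 136 UMIs, 20.3% were higher in both KO libraries and 14.7% were lower. In edgeR's quasi-likelihood test on summed counts, 3 of the 39 members passed the filter on low counts, and none had an adjusted p under 0.05. The log2 change of KO over WT was 1.45 (SE 0.478, adjusted p = 0.66) for Hoxd3, 0.90 (SE 0.427, adjusted p = 0.918) for Hoxa3 and 0.72 (SE 0.36, adjusted p = 0.933) for Hoxb3, by Benjamini-Hochberg adjustment over 17010 genes. The percentage called over all genes was 0 (0 of 17010 with edgeR, 1006 at an unadjusted p under 0.05, and 42 called by DESeq2), and no Hox gene was among them (DESeq2 gave an adjusted p to Hoxa3 and Hoxb3 only). Without KO replicate 1 edgeR called 54 genes and without KO replicate 2 it called 478, again no Hox gene. These 3 genes passed through their own counts, so their common direction is not counted as support.

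Hox UMIs were concentrated in one population. Nuclei were clustered without any Hox gene, and cluster 16, 1634 nuclei led by Glra1 (a glycine receptor subunit), Scn9a, Ebf2 and Zfhx3, held 150 of the 238 nuclei with a Hox UMI (63%) and 75.5% of Hox UMIs. Cluster 16 was singled out as the cluster with the most Hox UMIs summed over these same libraries, so its lead is a description. In each library it held the most, 63% and 75.4% of Hox UMIs in WT and 77.9% and 80.2% in KO. The share of its nuclei with a Hox UMI was 9.18%, and the level was 28.3 Hox CPM (exact Poisson 95% interval 25.3 to 31.6; intervals here cover counting error only). Cluster 16 matched no single list of cell type markers, so it is called by its number.

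Cortical excitatory neuron-like nuclei, which should lack Hox expression, were taken as the background. Among them 8 of 1959 had a Hox UMI (0.408%, exact binomial 95% interval 0.177% to 0.803%) at a median depth of 5717 UMIs, and the level was 0.638 CPM. Cluster 16 had a like median depth, 6111.5 UMIs. Cerebellar granule neuron-like nuclei stood near this background at 1.06 CPM (9 of 4128 nuclei, median depth 2066). Microglia-like nuclei had 1 Hox UMI in 359 nuclei. Of other forebrain classes, striatal spiny neuron-like nuclei had 1.96 CPM (5 of 560 nuclei, 0.893%, interval 0.29% to 2.07%). Olfactory or migrating GABAergic neuron-like nuclei had 1.31 CPM (3 of 960 nuclei). Cerebellar inhibitory neuron-like nuclei were higher, at 4.92 CPM (exact Poisson 95% interval 1.81 to 10.7), from 6 Hox UMIs in 4 of 389 nuclei. By library these were 0 of 79 and 0 of 130 nuclei in WT and 1 of 92 and 3 of 88 in KO.

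Astrocyte-like nuclei were above the cortical background. Of these, 27 of 1339 (2.02%, interval 1.33% to 2.92%) had a Hox UMI at a median depth of 2147, and the level was 8.52 CPM. This held in each library, with 7.14 and 7.38 CPM in WT and 11.6 and 9.19 in KO. The interval of the share overlapped that of striatal spiny neuron-like nuclei. The intervals of the levels did not, at 5.71 to 12.2 CPM for astrocyte-like and 0.636 to 4.57 CPM for striatal nuclei. Oligodendrocyte precursor-like nuclei had 10 Hox UMIs (3 and 3 in WT, 4 and 0 in KO), at 5.02 CPM. Oligodendrocyte-like nuclei had 6 (2 and 3 in WT, 1 and 0 in KO), at 4.14 CPM. Cluster 9, at 8.13 CPM, was shallow (median 752 UMIs). No Hox UMI was found in 125 Bergmann glia-like nuclei, which allows a share of up to 2.4% (3 counts of the total). The 108 nuclei of cluster 20 had none either, which allows up to 2.78%. Cluster 20 had 7 of the Purkinje markers but stayed unnamed, because the thalamic neuron list scored alike. At Leiden resolution 2, the Purkinje cell-like cluster had 15 nuclei and the thalamic neuron-like cluster 104, so 2.78% is not a bound for Purkinje cells. Cortical interneuron-like nuclei had 6 Hox UMIs, and all of them came from 1 nucleus of WT replicate 2 (Hoxb4 3, Hoxa3, Hoxb5 and Hoxb3 1 each).

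**Figure D2:**
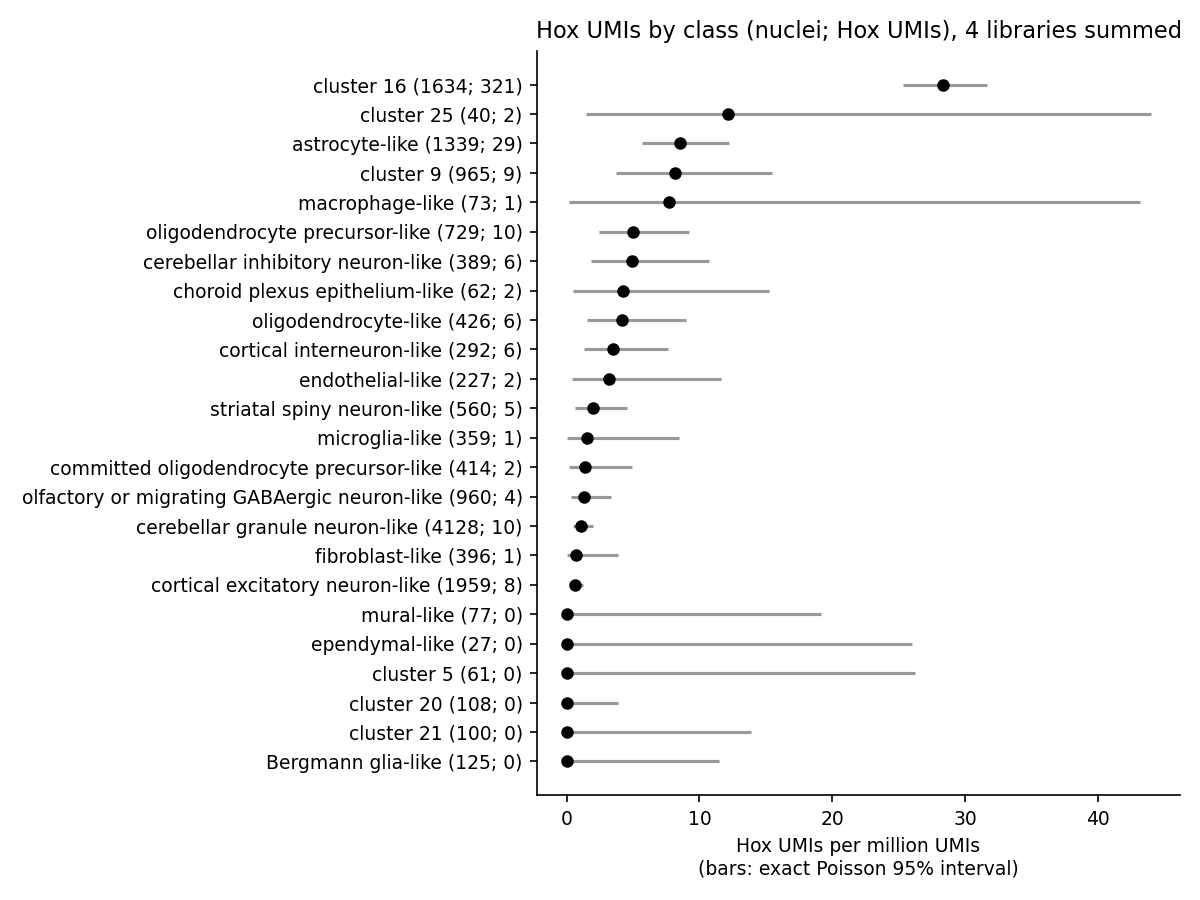
Hox UMIs as CPM (x axis) in each class or unnamed cluster (y axis, with its nuclei and Hox UMIs), 4 libraries summed; bars are exact Poisson 95% intervals. Cluster 16 stands at 28.3 CPM, astrocyte-like nuclei at 8.52, and cortical excitatory neuron-like nuclei at 0.638; classes with few nuclei have wide bars.

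Within cluster 16 the signal was uneven. Subclusters, formed after the data had been seen and again without Hox genes, ranged from 78.6% of nuclei with a Hox UMI to none, and the 4 with the highest level held 235 nuclei and 48.2% of all Hox UMIs. Subcluster 3, glycinergic neuron-like by Pax2, Pax8, Slc6a5 (the glycine transporter of inhibitory nerve endings) and Sall3, had a Hox UMI in 33 of 42 nuclei and 243 Hox CPM (interval 195.5 to 298.9). By library these were 4 of 6 and 10 of 12 nuclei in WT and 10 of 14 and 9 of 10 in KO. Its 90 Hox UMIs were 31 of Hoxb3, 19 of Hoxa3, 11 of Hoxb5, 10 of Hoxd3, 8 of Hoxb6 and 11 of other members.

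Subcluster 5, Slc17a6 excitatory neuron-like with Lmx1b and Ebf2 among its genes, had a Hox UMI in 21 of 40 nuclei and 133 CPM. It held 4 of the 8 UMIs of Hoxb8. Subcluster 19, unnamed, with Irx2 and Col18a1 among its top genes, had 9 of 26 nuclei and 106 CPM, with 13 of its 19 Hox UMIs from Hoxb3 and none from groups 5 to 8. Subcluster 4, unnamed, with Syt2 and Nefm (a neurofilament of large axons), had 26 of 127 nuclei and 42.1 CPM. Subcluster 8, with Lmx1a, had 14 of 105 nuclei and held 3 of the 7 UMIs of Hoxa2 and 4 of the 23 of Hoxb2. Subcluster 7 had 23 Hox UMIs in 6 of 116 nuclei. Of the genes of monoamine synthesis, Ddc had a UMI in 25.9% of its nuclei, Th in 11.2% and Tph2 in only 1.72%.

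At the low end, subcluster 2, unnamed, had 1 of 157 nuclei, subcluster 16 had 1 of 29, subcluster 0 had 4 of 99, the thalamic neuron-like subclusters 14 and 18 had 2 of 68 and 1 of 41 nuclei, subcluster 11, with Otx2 (a factor of forebrain and midbrain), had 1 of 55, and subclusters 1, 13, 15, 17, 20 and 21, with 14 to 48 nuclei each, had none. Subclusters were ranked by the Hox level itself, so their order is a description.

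**Figure D3:**
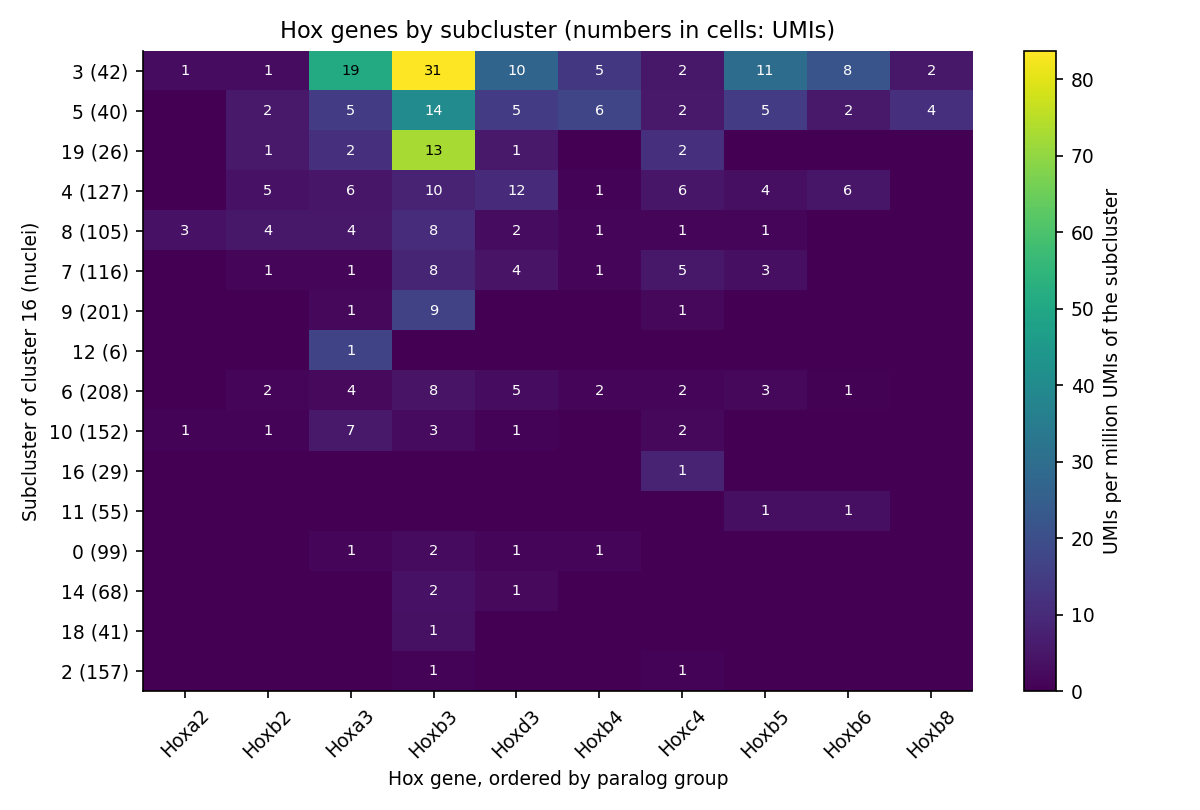
CPM (colour) of 10 Hox genes, ordered by paralog group (x axis), in the subclusters of cluster 16 with a Hox UMI (y axis, nuclei in brackets), 4 libraries summed; the numbers in the cells are UMIs. Subclusters 3 and 5 hold members of groups 2 to 6 and 8, whereas 13 of the 19 UMIs of subcluster 19 are Hoxb3.

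Single nuclei often held more than one Hox gene. In cluster 16, 71 of the 150 nuclei with a Hox UMI (47.3%) had 2 or more Hox genes, up to 5, against 8 of 88 (9.09%) outside it. Nuclei with a Hox UMI had a median of 8549.5 UMIs in cluster 16 and 2886 outside it. Nuclei with 2 or more Hox genes were deeper, at a median of 10541 UMIs over all classes against 4865 for those with 1. The most frequent sets were Hoxb3 alone (47 nuclei), Hoxa3 alone (27), Hoxd3 alone (25), Hoxc4 alone (14) and Hoxb3 with Hoxc4 (13). Hoxb3 was also detected in 18 of the 57 nuclei with Hoxa3, 14 of the 48 with Hoxd3 and 16 of the 35 with Hoxc4. The most posterior paralog group seen was 3 in 123 nuclei, 4 in 44, 5 in 26, 6 in 18 and 8 in 8. One nucleus of WT replicate 2, in subcluster 3, had 8 Hox UMIs (Hoxb3 4, Hoxb5 2, Hoxd3 1, Hoxb4 1) among 20950 UMIs.

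The share of nuclei with any Hox UMI was higher in both KO libraries. It was 1.27% (exact binomial 95% interval 0.911% to 1.72%) and 1.41% (1.12% to 1.74%) in WT and 1.86% (1.42% to 2.39%) and 1.74% (1.31% to 2.25%) in KO, with means of 1.34% ± 0.099 and 1.8% ± 0.0898 (SD, n = 2 each), a ratio of 1.35. The groups did not overlap, but each WT interval overlapped those of both KO libraries. Hox CPM were 5.18 and 6.63 in WT and 10.2 and 9.3 in KO. With 2 libraries against 2, no exact permutation test can go below p = 0.33, and no test was made of this sum.

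Cluster 16, which held most of these nuclei, was also the larger in both KO libraries. It made up 8.19% and 8.72% of nuclei in WT and 13.2% and 13.8% in KO, a ratio of group means of 1.59. In edgeR's quasi-likelihood test on nuclei per population, added after the data had been seen, the log2 change was 0.67 (SE 0.171, adjusted p = 0.0615 over 24 populations), which did not pass the threshold. Within cluster 16, the share of nuclei with a Hox UMI was 8.68% and 9.45% in WT and 9.2% and 9.15% in KO, a ratio of 1.01. Outside it, the share was 0.606% and 0.639% in WT and 0.751% and 0.549% in KO.

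Depth differed between libraries in cluster 16, with a median of 5461 and 8376 UMIs in WT and 3938.5 and 5726 in KO, so that the groups overlapped. With each nucleus thinned to 1000 UMIs, which left out 8 of the 1634 nuclei of cluster 16, the shares there were 1.78% and 1.93% in WT and 2.46% and 2.19% in KO. Hox CPM in cluster 16 were 20.2 and 28.1 in WT and 33.8 and 29 in KO. On these measures the KO libraries lay above the WT libraries, by a margin smaller than the counting intervals of the levels (14 to 28.2 and 23.5 to 33.4 in WT, 26.8 to 42 and 22.9 to 36.2 in KO). Only Hoxa3 and Hoxb3 could be tested within cluster 16, with log2 changes of 0.57 (SE 0.473) and 0.28 (SE 0.356) and adjusted p = 1 for each, where 0 of 12543 genes were called by edgeR (506 at an unadjusted p under 0.05, 0 by DESeq2). No Hox gene passed the filter in the other 15 classes that were tested.

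Subcluster 9 took 52.7% of its 201 nuclei from KO replicate 1, 106 of the 424 cluster 16 nuclei of that library. It was shallow, at a median of 2371 UMIs, with mt-Nd2, mt-Co1, mt-Cytb and mt-Atp6 among its top genes. Without subcluster 9, cluster 16 made up 7.05% and 8.32% of nuclei in WT and 9.87% and 12.7% in KO. The 4 Hox-rich subclusters made up 1.18% and 1.37% of nuclei in WT and 1.96% and 1.7% in KO, and 14.3% and 15.8% of cluster 16 in WT and 14.9% and 12.4% in KO. The cerebellar classes, another hindbrain derivative but one outside the Hox domain, overlapped between the groups in their share of nuclei. Fewer cells of a type in the dissected tissue and fewer recovered nuclei of that type cannot be told apart from these libraries, and the border of the dissection is not given.

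**Figure D4:**
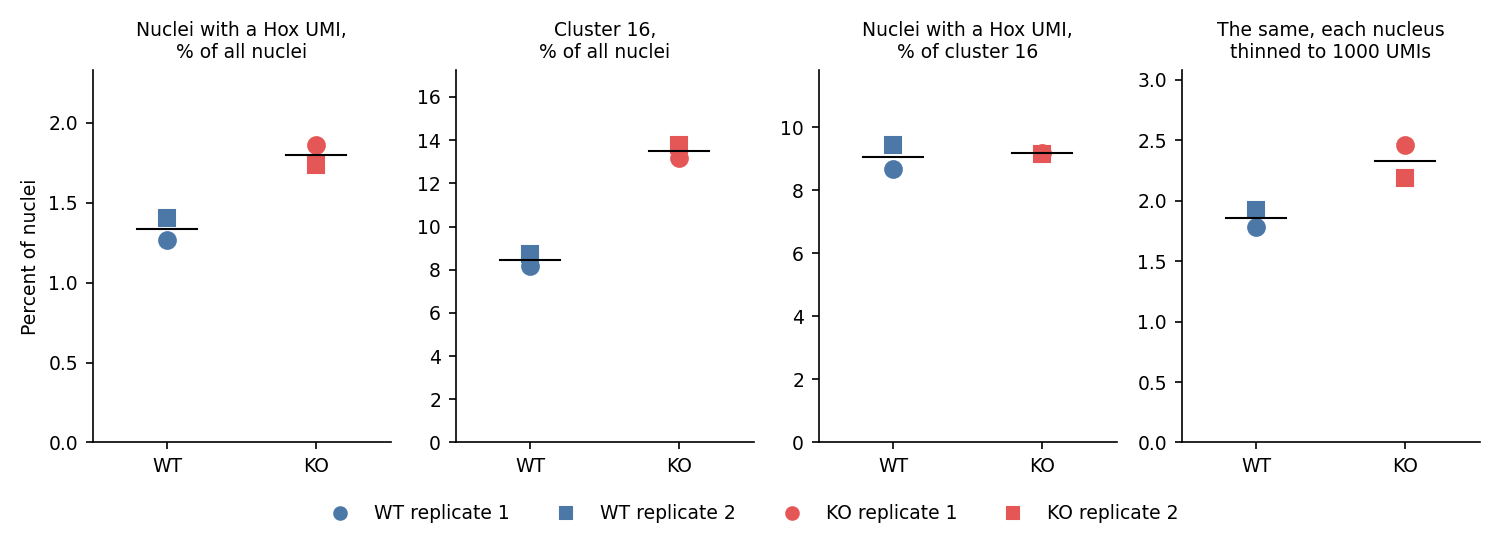
Percent of nuclei (y axis, from 0, a scale for each panel) in the WT (blue) and KO (red) libraries; points are libraries and lines are group means. From left to right: nuclei with a Hox UMI among all nuclei, cluster 16 among all nuclei, nuclei with a Hox UMI within cluster 16, and the same after thinning to 1000 UMIs per nucleus. KO libraries are higher in the first, second and last panel and lie within the WT range in the third.

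Nuclei of cluster 16 with a Hox UMI were compared with those without one. The comparison was made within libraries (23, 48, 39 and 40 nuclei with a Hox UMI, against 242, 460, 385 and 397 without), with the 39 Hox genes left out and the library as a block. With edgeR's quasi-likelihood test, 229 of 10783 genes were called (2.12%), 84 higher and 145 lower in nuclei with a Hox UMI. Nuclei with a Hox UMI were deeper in each library (medians of 7305, 11948.5, 6554 and 7666.5 UMIs against 5341, 8218, 3627 and 5617). A minimum of 2000 UMIs, which gave 220 calls, left that gap nearly as it was (5613.5, 8292, 4555 and 5737.5 UMIs in nuclei without a Hox UMI), so the part of depth in these calls was not tested. The subcluster was not held fixed either: subclusters 3, 5, 19 and 4 held 89 of the 150 nuclei with a Hox UMI and 146 of the 1484 without. Leaving out 1 library gave 115 (WT replicate 1), 58 (WT replicate 2), 112 (KO replicate 1) and 176 (KO replicate 2).

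Among the 10 higher genes with the smallest p, Pax8 rose by 3.55 (log2, SE 0.408), Slc6a5 by 2.78 (SE 0.266), Pax2 by 2.71 (SE 0.22) and Glra1 by 1.75 (SE 0.14), with adjusted p-values from 2.16e-07 to 2.69e-05 in edgeR. Pax2 and Pax8 are transcription factors of inhibitory interneurons in the dorsal hindbrain and cord. Slc6a5 had a UMI in 25.3% of the nuclei with a Hox UMI and in 4.04% of those without. Also higher were the transcription factors Ebf1 (1.40, SE 0.136) and Tshz3 (1.40, SE 0.148), the calcium channel subunit Cacna2d3 (0.96, SE 0.121) and the uncharacterised Gm12236 (1.69) and Gm12239 (1.05). Slc17a6, the driver gene of the Cre, had a UMI in 49 of the 150 nuclei with a Hox UMI (32.7%) and in 405 of the 1484 without (27.3%). Its level was not higher, at 70.7 CPM with and 72.5 CPM without a Hox UMI, and the median depths were 8549.5 and 5904.5 UMIs.

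Among the 10 lower genes with the smallest p, Otx2os1, the antisense partner of Otx2, fell by 3.88 (log2, SE 0.314, edgeR adjusted p = 2.16e-07). Tcf7l2, a factor of thalamic neurons, fell by 2.85 (SE 0.326, edgeR adjusted p = 2.68e-05). Scube1 fell by 1.95, Sox2ot by 1.32, Lhfp by 1.30, Kcnn3 by 1.29, Sorcs2 by 1.08, the GABA receptor subunit Gabrb2 by 1.00, Ntng1 by 0.88 and the AMPA receptor subunit Gria1 by 0.86. These 20 genes, the 10 of each direction with the smallest p, kept their direction and their adjusted p under 0.05 in all 8 alternatives run.

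**Figure D5:**
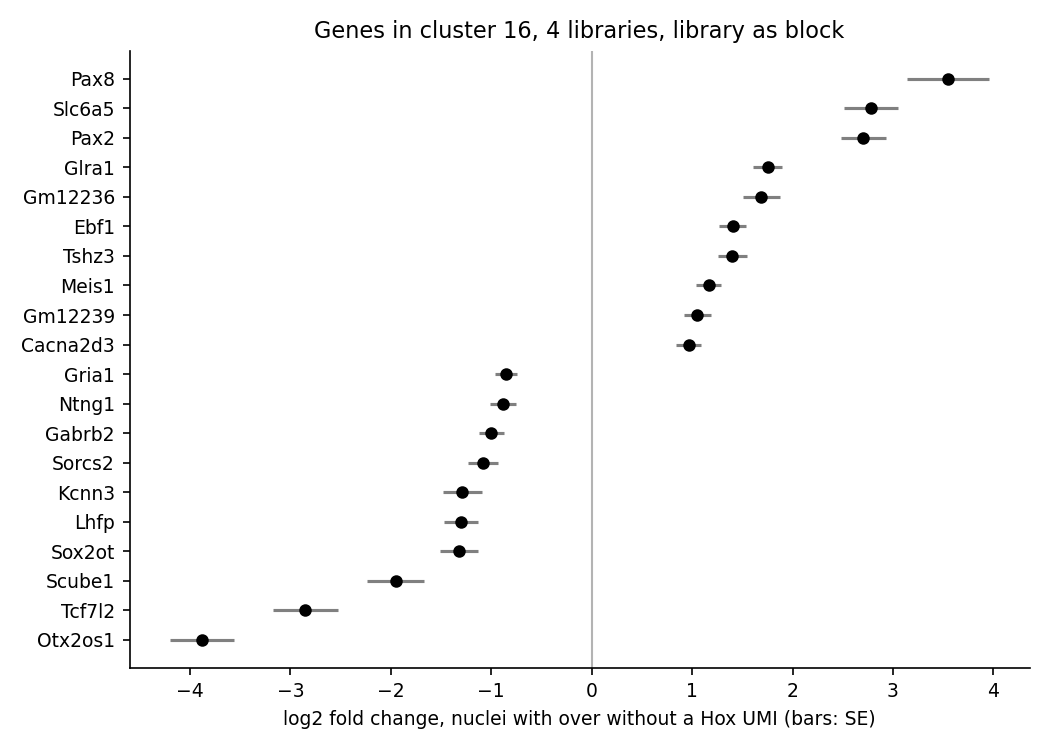
Log2 fold change (x axis) of 20 genes (y axis) between nuclei of cluster 16 with and without a Hox UMI, summed per library, with the SE from edgeR as bars; the 10 genes of each direction with the smallest p are shown. Pax8, Slc6a5 and Pax2 are the highest and Otx2os1 and Tcf7l2 the lowest.

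The lists of genes that work with or near Hox genes are given by their counts, beside a median of -0.0062 and 2.12% called over all genes of this comparison. Hox proteins bind DNA with TALE cofactors of the Meis, Pbx and Pknox families, and all 9 were tested. Meis1 rose by 1.16 (SE 0.126, edgeR adjusted p = 1.16e-05), 1 member fell, and 7 did not pass. The median of this list was 0.24. Of 24 hindbrain and caudal genes outside the Hox loci, 6 could be tested and 4 rose: Pax2, Pax8 and Slc6a5 as above, and Lmx1b, a factor of serotonergic and dorsal excitatory neurons, by 1.58 (SE 0.325, edgeR adjusted p = 0.0102). Chat, an enzyme of cholinergic neurons, was at -1.70 (edgeR adjusted p = 0.266). Among the subclusters, Chat was highest in subcluster 17, at 638.8 CPM and with a UMI in 100% of its 14 nuclei. Subcluster 20 came next, at 100.8 CPM, and neither subcluster had a Hox UMI. Subcluster 17 had Slc5a7, Lhx8, Tacr1 and Isl1 among its top genes and Gad2 in 64.3% of its nuclei. It matched no marker list, and the identity of its nuclei was not tested.

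Of 20 neighbours of the Hox loci, 8 could be tested and 3 rose. The antisense RNA Hoxaas3 rose by 5.63 (SE 0.778), the gene Skap2 beside HoxA by 2.07 (SE 0.331), and the antisense RNA Hoxb3os by 2.63 (SE 0.591), with edgeR adjusted p-values of 0.000271, 0.00125 and 0.0197. Hoxaas3 overlaps Hoxa3, and Hoxb3os overlaps Hoxb3 and Hoxb2, on the opposite strand. Whether the counting used strand is not given in the sources used here, so reads of these partners cannot be told apart. None of the tested forebrain transcription factors (1 of 14), midbrain and isthmus genes (2 of 11), retinoic acid pathway genes (5 of 17) and Polycomb or trithorax regulators (14 of 17) passed the threshold. Retinoic acid and Polycomb complexes set and hold Hox expression in the embryo, and the median of the latter list was -0.06.

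Between the genotypes the same lists gave no call in all nuclei or in cluster 16, where 0 genes passed in all. In all nuclei, the 14 tested hindbrain and caudal genes had a median log2 change of 0.36 (9 above 0 and 5 below) beside -0.0051 for all genes. The 9 TALE cofactors had a median of 0.17 and the 16 tested Polycomb or trithorax regulators 0.05. In cluster 16 the medians were 0.08, 0.02 and 0.01, beside -0.01 for all genes.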

How the data were processed

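Per the labels' protocols, nuclei were captured with 10x 3′ v3 chemistry. The deposited values are UMI counts per gene and barcode. Per the submitters' processing notes, the build was GRCm38 and the tools were Seurat 3.2.3 and Cell Ranger 4.0.0; the intron setting, strand setting and annotation release are not given in the sources used here. The deposited tables held 17802 barcodes and 64709928 UMIs. A barcode was kept from 500 UMIs upwards if mitochondrial genes gave under 5% of them, and 626 likely doublets were removed, those with the highest Scrublet scores up to 0.8% per 1000 barcodes. Nuclei were clustered with scanpy 1.11.5 (2000 variable genes, 30 components, Leiden resolution 1), leaving out all Hox genes, Ago2, the Cre row, and mitochondrial and sex-linked genes. Clusters were named from marker lists.

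Counts were summed per library and tested with edgeR 4.0.16 (filterByExpr, TMM, quasi-likelihood, Benjamini-Hochberg, threshold 0.05), with DESeq2 1.42.0 as an alternative. The library was the replicate. Values were given for the 12 Hox genes with the most UMIs, up to 4 members of each list and the 10 genes per direction with the smallest p; some items that this rule names are not reported here. Members and lists were chosen with earlier results of these data known. On simulated counts for the genotype comparison over 17010 genes, 54% of 2-fold and 93% of 4-fold changes were recovered with 18 false calls. For nuclei with and without a Hox UMI, over 10791 genes, these were 63% and 87% with 13. The 100 changed genes per fold were drawn at random from all genes past the filter. Recovery at the low counts of the Hox genes was not tested. Positions came from GENCODE M21, in which all 39 gene identifiers matched.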

Additional observations from a re-analysis of the deposited data

How the results depend on the processing

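No Hox gene passed the threshold between the genotypes, in all nuclei or in any class, under any alternative run. Over all nuclei, the log2 ratio of KO to WT in the share of nuclei with a Hox UMI was 0.43; it was 0.67 counting nuclei with at least 2 Hox UMIs, 0.67 after thinning to 1000 UMIs, and 0.35 to 0.51 leaving out each library in turn. Within cluster 16 that ratio was 0.02; it was 0.14 with up to 10% mitochondrial UMIs, 0.33 after thinning, and -0.04 to 0.08 leaving out each library. The number of genes called between genotypes in all nuclei was 0 with edgeR, 42 with DESeq2, 24 without the filter on low counts, 1 without the cerebellar classes, and 0 to 478 leaving out each library, 54 without KO replicate 1 and 478 without KO replicate 2. The number called between nuclei with and without a Hox UMI was 229 with edgeR, 89 with DESeq2 (88 of them shared), 405 without the filter, 110 without the library block, and 58 to 176 leaving out each library, which have fewer samples. The log2 change in the share of cluster 16 was 0.67; it was 0.57 without subcluster 9 (chosen after seeing the data) and 0.63 to 0.72 leaving out each library (edgeR adjusted p 0.168 to 0.359). In cluster 16, the log2 change of Hoxb3 ranged from -0.01 to 0.53 leaving out each library. The causes were not tested.

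Replicate numbers are shared between the groups, but the deviations of same-numbered libraries had a correlation of -0.0913 over 17010 genes, so the number does not pair them. The fit with the replicate block called 0 genes and 0 Hox genes, as without it, and gave 0.67 for cluster 16 (edgeR adjusted p = 0.12). At 425 Hox UMIs, depth limits every statement on single members: those with under 10 UMIs cannot be compared between genotypes.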

Other observations

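At a finer clustering (Leiden resolution 2, without Hox genes), most nuclei of 3 clusters were astrocyte-like or Bergmann glia-like, and these classes were not kept apart there. The cluster with the forebrain factor Lhx2 (42.4 CPM) had a Hox UMI in 6 of 739 nuclei (0.812%, exact binomial 95% interval 0.298% to 1.76%). The cluster led by Slc6a11, a GABA transporter (1406 CPM), had a Hox UMI in 15 of 483 (3.11%, interval 1.75% to 5.07%), and that led by Pax3, with the Bergmann glia marker Gdf10 at 84.1 CPM, in 6 of 241 (2.49%, interval 0.919% to 5.34%). Their median depths were 2063, 2370 and 1971 UMIs. In the Slc6a11 cluster, 4 and 5 of the nuclei with a Hox UMI were WT and 6 and 0 were KO.

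RNAs transcribed from the Hox loci other than the 39 genes were of like abundance. Hoxb3os had 117 UMIs (15 and 42 in WT, 37 and 23 in KO). Hotairm1 had 46, Hoxaas3 41, Hoxaas2 34 and Haglr 28, while Hotair and Hottip had none. The share of UMIs in cluster 16 was 78% for Hoxaas3, 64.7% for Hoxaas2, 44.4% for Hoxb3os, 34.8% for Hotairm1 and 17.9% for Haglr. Across the 28 clusters, the genes whose level was most like the Hox sum, by Pearson correlation of log2(CPM + 10) over 13019 genes, were Zim1 (0.726), AW551984 (0.711), Gm12236 (0.672) and B230217J21Rik (0.625), followed by Thoc6, 1110015O18Rik, Frs3, Avp, Rell2 and Gm26633 (0.593). These clusters come from the same 4 libraries and the value is a description.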
